A study of Mus musculus with 10 samples.

Results

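Mitochondrial ribosomal protein genes, whose products make up the ribosome inside mitochondria, were examined in pancreas RNA of mice that differ in Insr, the insulin receptor gene, of which 0, 1 or 2 alleles were floxed. Members were the rows of the raw count table whose symbol is Mrpl or Mrps followed by a number and at most an a or b. This gave 76 genes of 24421 in the table, 48 with an Mrpl and 28 with an Mrps symbol. All 76 passed the filter on low counts that left 13688 genes for testing.

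RNA came from a piece of the pancreas tail of female mice aged 12 weeks, with 1 library per mouse. Every mouse carried Ptf1aCreER, a Cre recombinase driven by the promoter of an acinar cell gene and switched on by tamoxifen, and the nuclear reporter nTnG. The groups, named here by their labels, were Insr WT (Insrw/w, n = 3), Insr Het (Insrw/f, n = 3) and Insr KO (Insrf/f, n = 4). The series is about the part of the acinar cell insulin receptor in the onset of pancreatic cancer under high insulin, with digestive enzymes and inflammation as readouts. Cre can remove the receptor from acinar cells, while the other cells of the tissue keep it. Each mouse is taken as a separate animal, and p-values set the difference between groups against the spread between these animals.

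The mitochondrial ribosome translates the few proteins that mitochondrial DNA still encodes, which are core subunits of the respiratory chain and of ATP synthase. All of its own proteins are encoded in the nucleus, made by cytosolic ribosomes and imported. Some descend from bacterial ribosomal proteins and others were gained by mitochondria. Acinar cells, which make and secrete large amounts of digestive enzymes, have a high demand for ATP.

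The members held 0.0898% of all gene counts. Their counts per library ran from 8, for Mrps33, to 1177, for Mrpl24, and 53 of 76 members had at least 50 counts in every library. By ribosome structure, 25 members belong to the small subunit and 50 to the large subunit, among them Mrps18a and Mrps30, whose products sit in the large subunit in spite of their symbols. The product of Mrps36 is a component of the 2-oxoglutarate dehydrogenase complex and was kept apart. Coding length had a median of 582 bp (261 for Mrps21 to 1326 for Mrps30), against 1407 bp for all tested genes with a length. In the GENCODE M21 annotation of GRCm38, 31 members share exon bases with another gene, 6 of them on the same strand. Whether counting used strand is not given in the sources used here, so counts of these 31 genes could include or lose reads of the neighbour.

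The 10 libraries held 11718559 to 19024351 gene counts. Levels are given on the counts-per-million scale (CPM), with library sizes scaled by TMM, a method that sets the typical gene equal between libraries. Transcripts of 33 digestive enzyme genes took 64.2% to 79.1% of counts in the KO libraries and 73.0% to 77.7% in the Het libraries. The WT libraries ranged from 72.9% (WT-2067) over 59.6% (WT-1860) down to 16.1% (WT-2404), so that WT-2404 stood apart from the rest. Summed acinar markers were present in every library (28758 CPM in WT-2404, 260026 to 926570 CPM in the others), and none of the 12 was at 0. Summed levels of 8 macrophage markers were 393 to 1544 CPM in WT, 208 to 322 in Het and 120 to 442 in KO libraries. The 8 fibroblast markers gave 1241 to 4349, 509 to 967 and 451 to 1110 CPM, and none of these 16 markers was at 0 in any library. The 8 ductal markers also lay higher in WT, at 771 to 1254 CPM, against 367 to 637 in Het and 376 to 627 in KO libraries. The 8 lymphoid markers gave 37.5 to 67.5, 17.6 to 19.6 and 7.18 to 40.7 CPM, the 6 adipocyte markers 40.1 to 48.8, 60.8 to 77.5 and 45.4 to 91.8, the 8 islet markers 471 to 5644, 4910 to 9782 and 3569 to 8437, and the 6 endothelial markers 96.6 to 154, 131 to 151 and 91.3 to 188. Of these lists only the lymphoid had markers at 0, 3 of the 8 in KO-2126. Insr itself had 21.0, 27.8 and 40.5 CPM in WT, 43.2, 44.2 and 28.2 in Het and 22.7, 33.3, 35.5 and 34.7 in KO libraries. The groups overlapped, and KO against WT was 0.09 on the log2 scale (SE 0.26, adjusted p = 0.864 by edgeR). Gene counts of whole tissue do not show the floxed exon or acinar cells alone, so this gene does not check the labels, and WT, Het and KO stand below for the libraries labelled so in every direction given.

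On the CPM scale the 76 members of WT-2404 summed to 584 CPM, those of WT-1860 to 639 and those of WT-2067 to 780. The Het libraries held 982, 928 and 899 CPM, and the KO libraries 867, 963, 786 and 989 CPM. Every library with a floxed allele was above every WT library, with KO-2124 and WT-2067 nearly level. Scaled to all counts outside the digestive enzyme genes, in CPM of these, members gave 2457 to 2532 in WT, 2645 to 3020 in Het and 2813 to 2980 in KO libraries. Again WT stood below all others, here with WT-2404 next to WT-1860. As CPM of the library without TMM the order was the other way, at 1248 ± 722 for WT (SD, n = 3), against 725 ± 119 for Het (SD, n = 3) and 759 ± 221 for KO (SD, n = 4). On that scale WT-2404, where the enzyme genes took the smallest share, held 2062 and WT-2067 held 685. In such bulk samples, fewer cells of a type and less RNA per cell cannot be told apart.

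**Figure D1:**
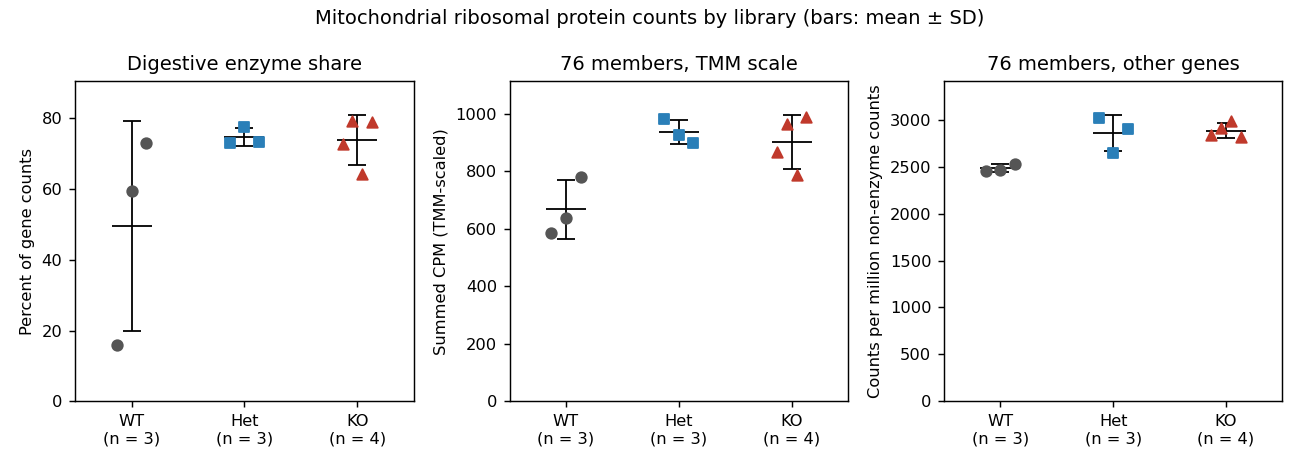
Share of gene counts from 33 digestive enzyme genes (left, percent), summed TMM-scaled CPM of the 76 members (middle) and members as CPM of the counts outside the enzyme genes (right) in each library of the 3 groups, with points for libraries and bars for mean ± SD. WT libraries lie at 584 to 780 CPM and the others at 786 to 989, while by library size alone WT would be the highest group.

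Library by library, WT-2404 held the lowest CPM of 37 of the 76 members, WT-1860 that of 22 and WT-2067 that of 2. Each of the other libraries held the lowest value of 2 or 3 members. In each Het and KO library 64 to 68 members were above the WT mean on the log2 scale, except KO-2124 with 54. WT-2067, whose enzyme share of 72.9% was near that of most Het and KO libraries, was above that mean for 63 members. On the TMM scale, spread within WT was thus wide for these genes, and KO-2124, with the lowest enzyme share of the KO libraries, lay nearest to WT. Scaled to the counts outside the enzyme genes, summed members differed least within WT (SD 40.7, against 191 in Het and 76.9 in KO). There KO-2124, at 2980 CPM, was the KO library farthest from WT.

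Levels are ordered here per kb of coding length, a measure that leaves out the untranslated ends of the transcripts. The median member had 14.9 CPM per coding kb, with 14.1 for the small and 16.1 for the large subunit. Mrps21 was highest at 59.0 CPM per coding kb, followed by Mrpl30 (57.4), Mrpl17 (49.6), Mrpl52 (48.8) and Mrps24 (47.3). Mrps22 was lowest at 3.79, then Mrps31 (4.08), Mrpl47 (4.23), Mrps27, a pentatricopeptide repeat protein, (4.64) and Mrps18b (5.33). On this measure the range was 15.6-fold. Apart from the stalk protein Mrpl12, the products are thought to enter the particle in single copies. Members under 450 bp had a median of 28.9, those from 450 to under 900 bp 15.5 and longer ones 8.42 CPM per coding kb. Levels per coding kb thus went down with coding length. The annotated transcript of Mrpl17 has 7300 bp for 528 coding bp, and that of Mrps22 has 1197 bp for 1077. The order of genes and the range could therefore differ per kb of transcript.

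Promoter windows of 300 bases, from 250 before to 50 after the start, were taken from RefSeq (GRCm38.p6). A window was found for 67 members (73 windows), and 6 are printed, 5′ to 3′ on the gene's strand, because together they show each motif counted below and the range of the fold changes that follow. Capitals mark matches, on either strand, to CCGGAAG (core of ETS factors), GCGCA, any base and GCGC in a row (NRF1), AAGATGG (YY1), CCAAT (the CCAAT box) and GGGCGG (SP1). Mrpl53 (chr6:83108858-83109157, plus strand), with the highest fold change in KO libraries, has 2 ETS matches and a CCAAT box. Mrps26 (chr2:130563507-130563806, plus strand) has an ETS, a CCAAT and an SP1 match and 2 overlapping NRF1 matches. Mrpl12 (chr11:120484387-120484686, plus strand) has 1 NRF1 match. Mrpl42 (chr10:95501900-95502199, minus strand) has a YY1, a CCAAT and an SP1 match. Mrpl45 (chr11:97315466-97315765, plus strand) has 3 NRF1 matches and a fold change below 0 in KO libraries. Mrps25 (chr6:92183974-92184273, minus strand), with the lowest fold change in KO libraries, has a CCAAT match and none to ETS, NRF1 or YY1.
Mrpl53: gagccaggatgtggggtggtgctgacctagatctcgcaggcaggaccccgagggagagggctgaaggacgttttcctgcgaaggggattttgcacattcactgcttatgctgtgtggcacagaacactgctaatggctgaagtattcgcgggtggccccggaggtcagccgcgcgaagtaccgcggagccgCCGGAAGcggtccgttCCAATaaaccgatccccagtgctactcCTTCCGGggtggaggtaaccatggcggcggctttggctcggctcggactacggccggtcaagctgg
Mrps26: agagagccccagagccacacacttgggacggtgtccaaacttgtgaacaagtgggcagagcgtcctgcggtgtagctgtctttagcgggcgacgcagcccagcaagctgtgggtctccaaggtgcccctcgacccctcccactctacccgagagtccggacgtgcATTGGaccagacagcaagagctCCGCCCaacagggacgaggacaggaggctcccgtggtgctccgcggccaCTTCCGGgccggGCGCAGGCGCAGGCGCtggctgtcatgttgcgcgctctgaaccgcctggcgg
Mrpl12: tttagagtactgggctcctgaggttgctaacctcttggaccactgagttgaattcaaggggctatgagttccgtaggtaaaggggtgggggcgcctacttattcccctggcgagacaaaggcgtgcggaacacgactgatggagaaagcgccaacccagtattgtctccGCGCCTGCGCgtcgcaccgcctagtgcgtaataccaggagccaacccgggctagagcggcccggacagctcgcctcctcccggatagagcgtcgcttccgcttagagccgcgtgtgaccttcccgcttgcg
Mrpl42: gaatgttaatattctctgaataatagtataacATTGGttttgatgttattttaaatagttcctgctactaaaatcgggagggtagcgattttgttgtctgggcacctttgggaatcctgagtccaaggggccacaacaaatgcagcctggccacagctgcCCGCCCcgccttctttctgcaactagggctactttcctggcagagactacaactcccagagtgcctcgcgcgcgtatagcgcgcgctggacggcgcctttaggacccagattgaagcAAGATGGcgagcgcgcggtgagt
Mrpl45: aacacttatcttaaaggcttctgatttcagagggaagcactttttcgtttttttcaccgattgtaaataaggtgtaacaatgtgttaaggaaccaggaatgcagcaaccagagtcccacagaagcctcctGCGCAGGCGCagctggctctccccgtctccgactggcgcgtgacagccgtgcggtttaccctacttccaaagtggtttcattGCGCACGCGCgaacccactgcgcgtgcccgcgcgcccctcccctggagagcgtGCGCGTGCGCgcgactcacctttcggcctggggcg
Mrps25: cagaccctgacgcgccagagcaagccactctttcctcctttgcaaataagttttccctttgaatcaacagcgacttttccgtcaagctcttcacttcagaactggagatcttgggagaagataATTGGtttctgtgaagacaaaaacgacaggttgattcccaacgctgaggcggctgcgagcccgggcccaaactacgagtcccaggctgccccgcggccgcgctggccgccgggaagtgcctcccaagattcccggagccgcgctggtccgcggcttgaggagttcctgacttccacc

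Over all windows, CCGGAAG was present in 24 of 73 member windows (32.9%), against 15.9% of 13322 windows of tested genes and 8.86% of all 32851 windows. The NRF1 letters were found in 17.8% of member windows, 9.06% of those of tested genes and 4.6% of all. The shares for AAGATGG were 17.8%, 6.77% and 6.34%. CCAAT was in 41.1% of member windows, 36.9% of tested and 37.4% of all windows, and GGGCGG in 52.1%, 60.8% and 35.7%. ETS, NRF1 and YY1 letters were thus found in a larger share of member windows than of windows at large, while the GGGCGG share lay between those of tested genes and all windows. CCGGAAG and AAGATGG can share the letters AAG, and a match is a description of letters, not of binding. In KO against WT the 24 members with CCGGAAG had a median of 0.40 (log2) and the 43 without it 0.39. For the NRF1 letters the medians were 0.42 (13 members) and 0.39 (54), and for AAGATGG 0.39 (13) and 0.41 (54). In that comparison members with and without each of these letters had nearly the same medians. In Het against WT the medians with and without were 0.54 and 0.38 for the NRF1 letters. They were 0.32 and 0.41 for AAGATGG, and 0.41 and 0.37 for CCGGAAG. These differences were not tested.

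KO against WT addresses what goes with floxing both Insr alleles. Most mitochondrial ribosomal protein genes were at higher values in KO libraries, 66 of 76, and 10 were at lower values. Their median log2 fold change was 0.40, against 0.03 for all genes tested, while by library size alone the members' median was -0.72 and that of all genes -1.17. With a library size without the enzyme genes these medians were 0.19 and -0.19. None of these differences passed an adjusted p of 0.05 in edgeR (0 of 76 members, smallest adjusted p = 0.116), and neither did any gene of the table (0%). At an unadjusted p under 0.05, edgeR had 30 members higher, where 9.61% of all genes were higher, and 0 lower, where 13.9% were lower. For 15 members all KO libraries were above all WT libraries (6.74% of all genes), and for 0 all were below (9.15%). DESeq2 called 4 members higher (2.05% of genes), Mrpl15, Mrpl20, Mrpl53 and Mrps24, and 0 lower (5.11%), and limma voom with quality weights called 0 (0%). At an unadjusted p, in separated ranges and by DESeq2, the share of members at higher values was above that of all genes, and no member passed in all tools.

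Single libraries moved these counts. Without WT-2067, edgeR called 14 members of KO against WT, all higher, where it called 6.22% of all genes higher and 7.42% lower, and the members' median was 0.56. Members higher at an unadjusted p under 0.05 numbered 11 without WT-2404 (4.13% of all genes higher) and 11 without WT-1860 (6.54%). They numbered 16 without KO-2070 (6.23%) and 17 without KO-2126 (6.17%), and 8 with the log2 enzyme share as a covariate (2.83%). The median without WT-2404 was 0.29, and with the covariate it was 0.27. Measured from the median of all genes, members stood 0.25 to 0.55 higher in each setting run, including the 0.44 by library size alone. Reads without a feature, given as a share of all counts, were highest for KO-2124 (8.71%), WT-2404 (7.83%) and WT-1860 (7.001%). They were 3.77% in WT-2067 and 2.59% to 5.14% in the others. These 3 libraries and WT-2067 had the lowest summed member levels on the TMM scale. Without TMM, WT-2404 (2062 CPM), KO-2124 (1068) and WT-1860 (997) had the highest. Scaled to counts outside the enzyme genes, KO-2124 held 2980 CPM, above every WT library. The enzyme share, which entered as the covariate, was 16.1% to 72.9% in WT and 64.2% to 79.1% in KO libraries. That fit cannot fully separate it from genotype or from the single library WT-2404. The part of the reads without a feature and of the cell type markers in the result was not tested.

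**Figure D2:**
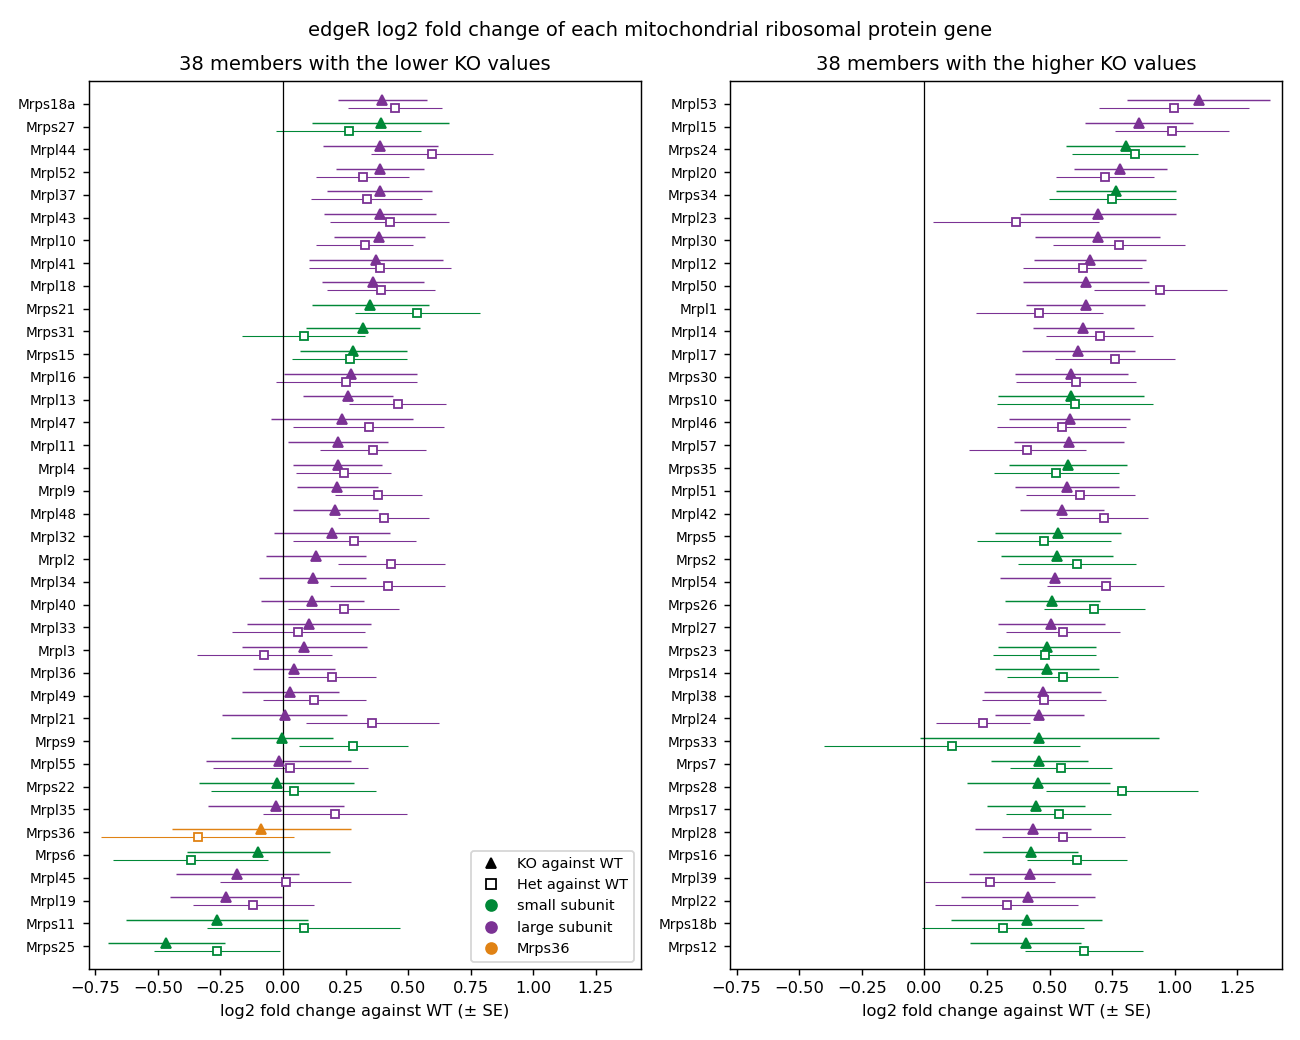
edgeR log2 fold change ± SE (x axis) of each of the 76 members (y axis, ordered by KO against WT), with triangles for KO against WT, open squares for Het against WT and colours for the subunit. Of 76 members, 66 lie above 0 in KO and 71 in Het libraries on the TMM scale, with none past an adjusted p of 0.05, and by library size alone the medians fall below 0.

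Mrpl15, of the large subunit and with a bacterial counterpart (ENSMUSG00000033845.13, chr1:4773206-4785739), shares no exon with another gene. It had 9.39, 11.9 and 15.4 CPM in WT, 30.9, 19.9 and 21.9 in Het and 23.1, 21.3, 19.5 and 24.4 in KO libraries. All WT libraries lay below all others, and Het-2066 was the highest. KO stood 0.86 above WT on the log2 scale (SE 0.22, adjusted p = 0.116 by edgeR and 0.0181 by DESeq2) and Het 0.99 (SE 0.23, adjusted p = 0.184 by edgeR and 0.0232 by DESeq2).

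Mrpl20 (ENSMUSG00000029066.12, chr4:155802878-155809975), a large subunit protein whose bacterial counterpart binds ribosomal RNA early in assembly, had 10.3, 12.1 and 14.8 CPM in WT libraries. Het libraries held 22.7, 20.04 and 18.4 CPM, and KO libraries 18.4, 24.1, 19.3 and 23.4. WT did not overlap with either group. The log2 fold change was 0.78 in KO (SE 0.19, adjusted p = 0.116 by edgeR, 0.0115 by DESeq2) and 0.72 in Het libraries (SE 0.20, adjusted p = 0.184 by edgeR, 0.047 by DESeq2).

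Mrpl53 (ENSMUSG00000030037.9, chr6:83109040-83109939), a large subunit protein gained by mitochondria, had 4.996, 10.3 and 12.1 CPM in WT, 23.1, 15.2 and 15.9 in Het and 15.5, 20.03, 19.5 and 22.4 in KO libraries. WT-2404 was lowest and the groups with floxed alleles lay above WT. The KO value of 1.10 on the log2 scale (SE 0.29, adjusted p = 0.116 by edgeR, 0.0193 by DESeq2) was the highest of the 76 members. Mrpl53 shares exon bases with Gm42688 on its own strand and with Ccdc142os on the other.

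Mrps24 (ENSMUSG00000020477.10, chr11:5703983-5715680), whose bacterial counterpart lines the entry of the mRNA channel, had 9.99, 16.6 and 19.8 CPM in WT, 32.5, 25.4 and 24.9 in Het and 22.4, 29.0, 24.5 and 31.8 in KO libraries. The WT libraries were again below the rest. KO against WT was 0.80 on the log2 scale (SE 0.24, adjusted p = 0.119 by edgeR, 0.0416 by DESeq2), and Urgcp overlaps the gene on the same strand.

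Mrpl42, a mitochondria-specific protein of the large subunit (ENSMUSG00000062981.5, chr10:95480805-95501940), was the steadiest of the leading genes in WT, with 11.3, 11.8 and 12.2 CPM. It had 20.6, 18.3 and 19.1 CPM in Het and 17.1, 19.8, 13.7 and 18.5 in KO libraries. Both groups lay above WT, KO-2124 least. The log2 fold change was 0.55 in KO (SE 0.17, adjusted p = 0.121 by edgeR) and 0.72 in Het libraries (SE 0.18, adjusted p = 0.184 by edgeR, 0.0332 by DESeq2).

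Mrps34, Mrpl14 and Mrpl12 completed the 8 higher members with the smallest p in KO against WT. Mrps34, a small subunit protein whose loss destabilises that subunit, had 6.93 to 15.4 CPM in WT, 17.99 to 19.2 in Het and 15.9 to 21.9 in KO libraries, with WT below the others, and overlaps Nme3 on the same strand. Mrpl14, at the interface between the subunits, had 5.63 to 7.49, 8.67 to 12.3 and 9.22 to 11.8 CPM, again with WT below, and Tmem63b overlaps it on the other strand. Mrpl12 is the stalk protein that recruits translation factors. It had 14.7, 16.1 and 23.4 CPM in WT, 26.5, 29.8 and 27.6 in Het and 26.2, 35.7, 20.4 and 32.1 in KO libraries. For Mrpl12 the KO range overlapped with WT through KO-2124, Gm16755 overlaps the gene on the other strand, and the exact two-sided permutation test gave p = 0.114, where 0.0286 is the smallest that 4 against 3 libraries allow. By library size alone each of these 8 genes except Mrpl53 was below 0 in KO against WT.

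**Figure D3:**
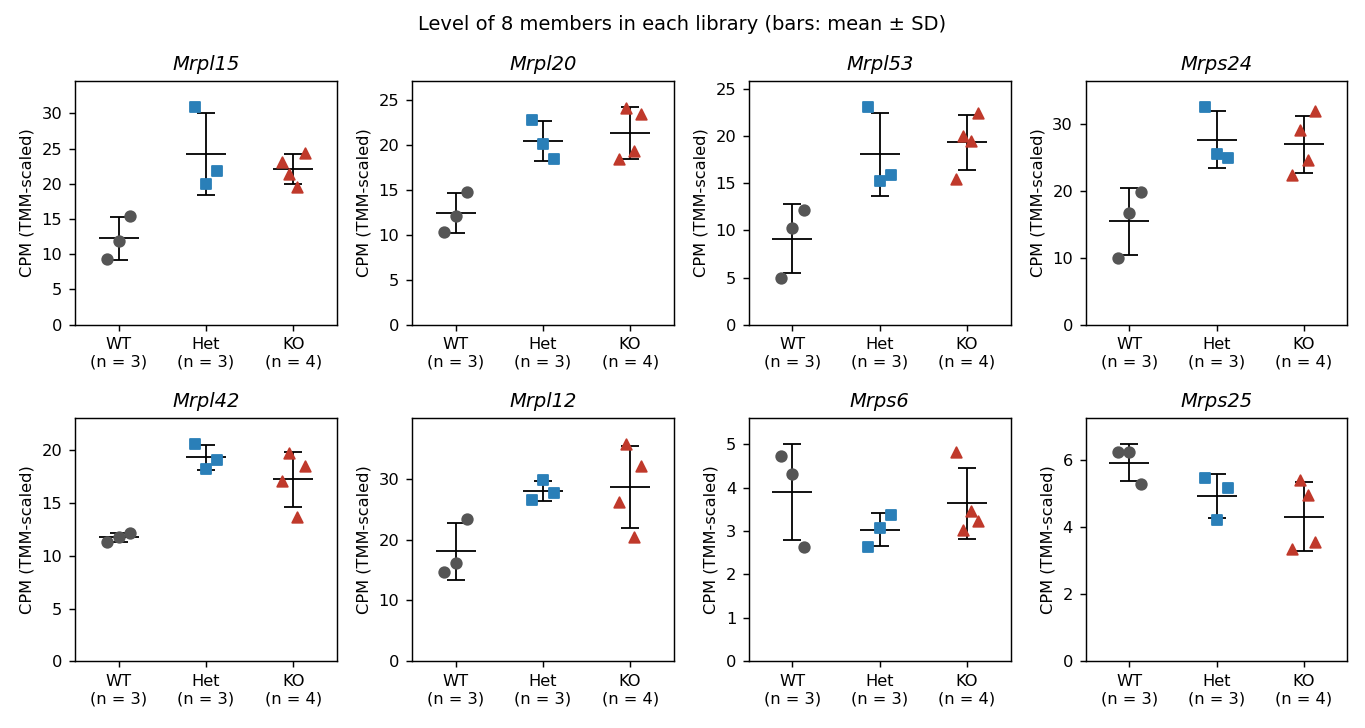
TMM-scaled CPM (y axis) of 8 members in each library of the 3 groups, with points for libraries and bars for mean ± SD. WT libraries lie below all others for Mrpl15, Mrpl20, Mrpl53, Mrps24 and Mrpl42, whose direction reverses by library size alone except for Mrpl53, and the groups overlap for Mrpl12 in KO, Mrps6 and Mrps25.

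Of the 10 members at lower values in KO against WT, none reached an unadjusted p of 0.05. Mrps25, a mitochondria-specific small subunit protein (ENSMUSG00000014551.8, chr6:92169525-92184033), had the lowest value. Its levels were 6.23, 6.24 and 5.27 CPM in WT, 5.44, 4.19 and 5.16 in Het and 3.34, 5.40, 4.93 and 3.54 in KO libraries. The groups overlapped through WT-2067, and KO against WT was -0.47 (SE 0.23, adjusted p = 0.245 by edgeR). Nr2c2 overlaps Mrps25 on the other strand.

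Mrps6 (4.73, 4.32 and 2.64 CPM in WT, 2.63, 3.08 and 3.38 in Het, 4.82, 3.03, 3.46 and 3.23 in KO libraries) overlapped in all groups and shares exon bases with Slc5a3. Its log2 fold change was -0.10 in KO and -0.37 in Het libraries, and above 0 in KO libraries without WT-2404 (0.08). Mrpl19, a large subunit protein with a bacterial counterpart, was at -0.23 and -0.12. Mrps36, the dehydrogenase component, was at -0.09 and -0.34, with 2.19 to 2.44 CPM in WT, 1.68 to 1.93 in Het and 1.30 to 3.13 in KO libraries. These 4 members, Mrps25 included, were the ones below 0 in both comparisons.

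The head-to-head pair Mrps11 and Mrpl46 starts within overlapping promoter windows on chromosome 7. Mrps11, a small subunit platform protein, had 3.28 to 3.86 CPM in WT, 2.27 to 5.97 in Het and 1.84 to 4.14 in KO libraries (log2 fold change -0.26, SE 0.36, in KO). Mrpl46, of the large subunit, was at 0.58 in KO against WT. Exons of the pair overlap, so their counts may share reads, and Mrpl46 was chosen after its values were seen.

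Het against WT asks the same of a single floxed allele, with the same WT libraries as reference, so the 2 comparisons are not independent. In Het libraries 71 of 76 members were at higher and 5 at lower values, with a median of 0.41 against 0.00 for all genes, a median of -0.87 by library size alone (-1.36 for all genes) and 0.12 with a library size without the enzyme genes (-0.31 for all genes). Again 0 members passed in edgeR (0% of genes, smallest adjusted p = 0.184), and at an unadjusted p under 0.05 edgeR had 30 higher (8.26% of genes) and 0 lower (11.6%). All Het libraries were above all WT libraries for 31 members (11.3% of genes) and below for 1, Mrps36 (13.5%). DESeq2 called 3 (0.89%), Mrpl15, Mrpl20 and Mrpl42, and voom 0 (0%). The smallest p of an exact permutation test of 3 against 3 libraries is 0.1, so single members could not pass it.

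Without WT-2067, edgeR called 15 members of Het against WT, all higher, where it called 4.16% of all genes higher and 4.03% lower. At an unadjusted p under 0.05, 16 members were higher without WT-2404 (4.26% of all genes), 17 without WT-1860 (5.59%), 19 without Het-1770 (5.57%) and 10 with the enzyme share covariate (2.52%). Mrpl50, a mitochondria-specific large subunit protein, had 9.14, 12.7 and 17.2 CPM in WT, 30.8, 25.3 and 18.7 in Het and 15.9, 21.7, 18.5 and 25.1 in KO libraries. Het libraries lay above WT (log2 fold change 0.94, SE 0.27, adjusted p = 0.184 by edgeR), and KO libraries overlapped with it (0.64, SE 0.25). Mrps26, a small subunit protein, had 7.49 to 10.97 CPM in WT, 11.6 to 16.7 in Het and 12.4 to 12.6 in KO libraries, with WT below all others, and 4930473A02Rik overlaps it on the other strand. Mrpl3, near the catalytic centre of the large subunit, was below 0 in Het libraries (-0.07, SE 0.27) and above in KO (0.08, SE 0.25).

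Taking KO and Het fold changes side by side, 65 members were above 0 in both (44.4% of all genes), and 23 were higher at an unadjusted p under 0.05 in both by edgeR (5.82% of all genes). Because WT libraries serve both, no relation between the lists is tested here.

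KO against Het asks whether the other allele adds to the first. Members were at 27 higher and 49 lower values, with a median of -0.05 (all genes 0.01), which was 0.08 by library size alone (all genes 0.17). In edgeR 0 members passed at an adjusted p (0% of genes) and 0 at an unadjusted p under 0.05 (0.402% of genes higher, 0.351% lower), and DESeq2 and voom also called 0 (0%). Values separated upwards for 1 of 76 members, Mrpl24 (1.3% of genes), and downwards for 1, Mrps9 (1.16%). Both counts were near the share over all genes. Mrpl24 had 30.8, 27.2 and 31.6 CPM in Het and 33.8, 36.9, 35.5 and 33.6 in KO libraries (log2 fold change 0.23, SE 0.18), against 19.7, 29.6 and 27.0 in WT. Mrps9 had 7.72, 7.92 and 7.49 CPM in Het and 6.80, 5.14, 6.50 and 6.77 in KO libraries (-0.28, SE 0.21), with 7.65, 6.18 and 5.09 in WT. Mrpl24 and Mrps9 are named for ranges that do not overlap, so their exact permutation p of 0.0286, the smallest possible, repeats that choice. Over 76 members neither passed in edgeR. Rrnad1 overlaps Mrpl24 on the other strand. Of the other members with the smallest p, Mrps33 (0.35), Mrpl23 (0.33), Mrps6 (0.27), Mrps36 (0.25), Mrps31 (0.24), Mrpl1 (0.18) and Mrpl57 (0.17) were above 0. Mrpl21 (-0.35), Mrps28 (-0.34), Mrpl2 (-0.30), Mrpl34 (-0.30), Mrpl50 (-0.30), Mrpl13 (-0.20) and Mrpl48 (-0.19) were below 0. For Mrpl15, with the lowest p of the pooled comparison below, the difference was -0.13 (SE 0.21) and for Mrpl20 0.06 (SE 0.18).

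Pooling the 7 libraries with any floxed allele against WT, as the mean of the Het and KO fold changes, gave 70 members at higher and 6 at lower values, with a median of 0.38 (all genes 0.02), -0.80 by library size alone (all genes -1.26) and 0.14 with a library size without the enzyme genes (all genes -0.25). In edgeR 0 members passed (0% of genes, smallest adjusted p = 0.0597), 35 were higher at an unadjusted p under 0.05 (11.7% of genes) and 0 lower (16.5%). All 7 libraries were above all WT libraries for 10 members (3.99% of genes) and below for 0 (5.84%). Those 10 were Mrpl14, Mrpl15, Mrpl20, Mrpl42, Mrpl53, Mrpl57, Mrps16, Mrps24, Mrps26 and Mrps34. DESeq2 called 12 members higher (3.67% of genes) and 0 lower (8.02%). In voom with quality weights, WT-2404 had a weight of 0.317, WT-2067 0.600 and WT-1860 1.67, against 0.527 to 1.75 in the Het and KO libraries. With these weights voom called 20 members higher (6.1%) and 0 lower (8.4%). The 11 called by both were Mrpl12, Mrpl15, Mrpl17, Mrpl20, Mrpl30, Mrpl42, Mrpl50, Mrpl53, Mrps24, Mrps26 and Mrps34. DESeq2 and voom calls were all upwards. With WT-2067 left out edgeR called 25 members higher (8.82% of all genes), with KO-2124 left out 3 (0.722%), and with a library size without the enzyme genes 1, Mrpl15 (0.329%), while by library size alone it called 12 lower (52% of all genes). At an unadjusted p under 0.05, 17 members were higher without WT-2404 (5.22% of all genes), 17 without WT-1860 (7.42%) and 9 with the enzyme share covariate (3.12%).

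By subunit, the median in KO against WT was 0.45 for the 25 small subunit members, 20 of them above 0, and 0.39 for the 50 large subunit members, 46 above 0. By library size alone these medians were -0.70 and -0.77. In Het against WT they were 0.53 and 0.40 on the TMM scale. The 42 members listed with a bacterial counterpart had medians of 0.39 in KO and 0.43 in Het libraries. The 33 outside that list, counted as gained or rearranged in mitochondria, had 0.41 in each. They include Mrps18a and Mrps18b, copies of bacterial S18 described below. Both parts of the particle and both lists by origin were at similar values, and a difference between them was not tested. Members without overlapping exons (45) had a median of 0.42 in KO and those with overlap (31) 0.39, a split chosen after seeing the data.

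Some members were named for a known role. Mrps12, part of the decoding centre, had 6.07 to 9.50 CPM in WT, 11.4 to 12.9 in Het and 8.04 to 12.7 in KO libraries. Mrps16, whose human counterpart is mutated in a respiratory chain deficiency, had 6.13 to 7.62, 9.41 to 12.0 and 7.99 to 11.1 CPM, with WT below all others (0.42, SE 0.19, in KO). Mrps22, another gene of such deficiencies, was at -0.03 (SE 0.31) in KO against WT and Mrpl55 at -0.02 (SE 0.29), with 21 to 193 and 42 to 196 counts per library. Mrpl44, which has a fold like that of RNase III, was at 0.39 in KO (SE 0.23) and 0.60 in Het libraries (SE 0.24). Mrpl45, which anchors the ribosome to the inner membrane at the exit tunnel, had 7.71 to 9.37 CPM in WT, 5.44 to 12.1 in Het and 6.73 to 8.17 in KO libraries (-0.18, SE 0.24). Mrps30 was at 0.59 (SE 0.23), Mrpl41 at 0.37 (SE 0.27) and Mrps27 at 0.39 (SE 0.27) in KO libraries. Ict1, the symbol used in the table for Mrpl58, a release factor built into the large subunit, was at 0.22 (SE 0.22).

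The 3 vertebrate copies of bacterial S18 occupy different places in the particle. Mrps18a had 9.19 to 11.2 CPM in WT, 12.3 to 14.9 in Het and 10.4 to 14.6 in KO libraries. Mrps18b had 2.63 to 4.72, 3.17 to 5.70 and 3.56 to 5.19 CPM. Mrps18c, outside the symbol rule, had a mean of 6.37 CPM in WT, 8.52 in Het and 8.19 in KO libraries. Their log2 fold changes in KO against WT were close, at 0.40 (SE 0.18), 0.41 (SE 0.30) and 0.36 (SE 0.20), with no adjusted p under 0.05 in edgeR.

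Coding length moved with the fold change over all genes. In any floxed allele against WT the median was 0.19 for the 769 tested genes under 450 bp, 0.06 from 450 to under 900 bp, 0.03 from 900 to under 1500 bp and -0.04 from there on. Members in the first 3 classes had medians of 0.49 (22 members), 0.37 (39) and 0.34 (15), and 0 members were longer. Within each class the members' median was above that of all genes on the TMM scale, where library size alone puts the medians of members and of all genes below 0. With a trend in annotated transcript length and GC content removed, members stood 0.30 above the median of all genes, against 0.36 without. A trend in coding length itself was not removed.

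**Figure D4:**
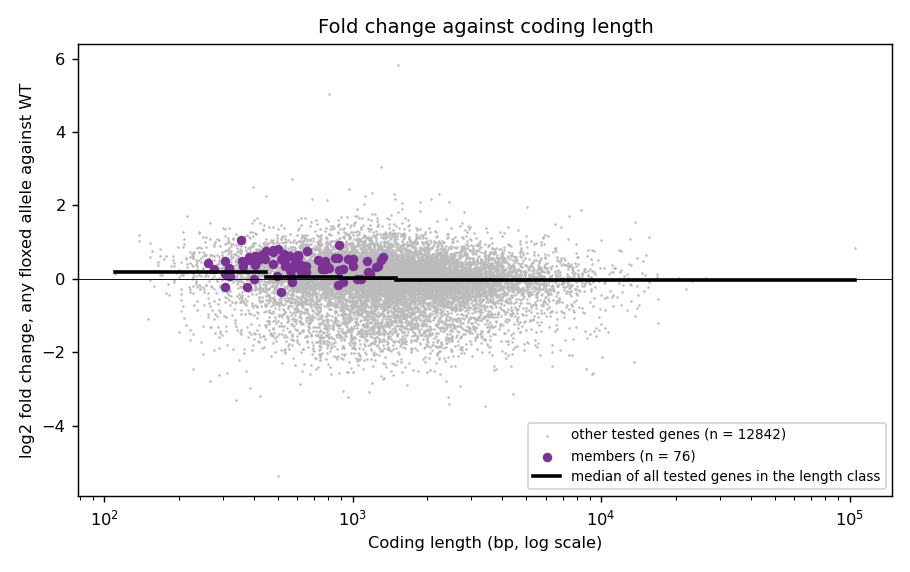
log2 fold change of any floxed allele against WT (y axis, TMM scale) against coding length in bp (x axis, log scale) for tested genes (grey) and members (purple), with black lines for the median of all genes in 4 length classes. Members lie mostly above the lines, with medians of 0.34 to 0.49, and by library size alone both members and all genes shift below 0.

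The other genes of mitochondrial translation come from lists of known roles. Among 6 further ribosomal proteins that carry other symbols, all 6 were above 0 in both comparisons, with medians of 0.39 in KO and 0.47 in Het libraries and 0 past an adjusted p in edgeR. Chchd1, of the small subunit, was at 0.72 (SE 0.25) in KO against WT, Aurkaip1, also of the small subunit, at 0.53 (SE 0.22) and Dap3 at 0.17 (SE 0.17).

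Assembly factors were near the members, with 24 of 25 above 0 in KO against WT and a median of 0.35. Tfb1m, the methyltransferase that modifies small subunit ribosomal RNA, had 1.99, 3.72 and 4.72 CPM in WT, 7.98, 7.55 and 4.30 in Het and 7.73, 8.56, 5.16 and 9.40 in KO libraries. Its log2 fold change was 1.17 in KO (SE 0.34, adjusted p = 0.117 by edgeR, 0.0336 by DESeq2), and all KO libraries lay above WT, as did Het-1770 and Het-2066 but not Het-2042. Mtg1, a GTPase of large subunit maturation, was at 0.81 (SE 0.25, adjusted p = 0.121 by edgeR). The chaperone-like C1qbp, chosen after its values were seen, was at 0.35 (SE 0.20).

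Translation factors had a median of 0.26 in KO and 0.19 in Het against WT (13 and 11 of 15 above 0). Mtif3, an initiation factor, had 4.51 to 5.15 CPM in WT, 6.20 to 8.39 in Het and 7.10 to 7.38 in KO libraries, with no overlap of WT and the others (0.58, SE 0.19, adjusted p = 0.125 by edgeR in KO). The elongation factor Tufm was at 0.11 (SE 0.23) in KO and -0.12 (SE 0.24) in Het libraries. Mitochondrial aminoacyl-tRNA synthetases had medians of 0.25 and 0.18 (19 and 15 of 20 above 0), led in KO libraries by Nars2 at 1.01 (SE 0.31, adjusted p = 0.121 by edgeR, 0.0393 by DESeq2). Genes that keep and transcribe mitochondrial DNA, with their regulators, had medians of 0.34 and 0.15 (12 and 11 of 13). Among them Tfam, which packages mitochondrial DNA, was at 0.44 (SE 0.20), Ppargc1a, a coactivator of mitochondrial biogenesis, at 0.67 (SE 0.35) and Polrmt, the mitochondrial RNA polymerase, at 0.21 (SE 0.21) in KO against WT. The medians of these lists ran from 0.47 down to 0.15 on the TMM scale, with 0 genes past an adjusted p in edgeR (0% of genes). By library size alone the median of the assembly factors was -0.77 in KO and -0.90 in Het libraries. There edgeR called 20.8% and 22.9% of all genes lower and 0% higher. Differences between lists were not tested.

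**Figure D5:**
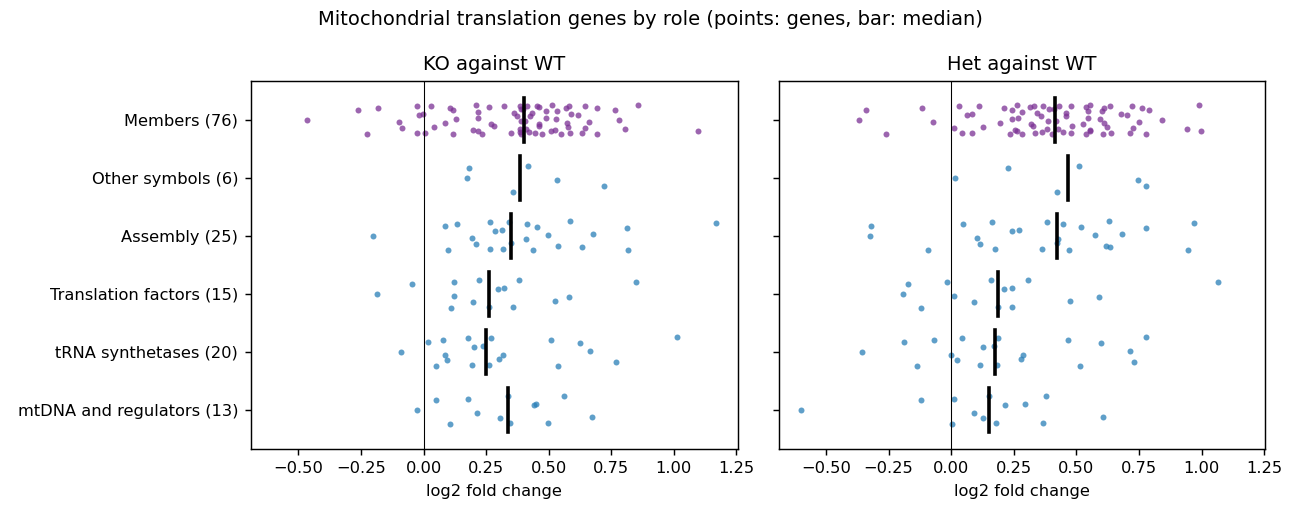
log2 fold change (x axis, TMM scale) of single genes (points) in 6 lists of mitochondrial translation genes (y axis), in KO against WT (left) and Het against WT (right), with bars for the list medians. Medians are highest for members, proteins under other symbols and assembly factors, at 0.35 to 0.47, and by library size alone the members' medians fall to -0.72 and -0.87.

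Values of 2 related groups are set beside the members. The median in KO against WT was 0.86 for 79 tested cytosolic ribosomal protein genes and 0.45 for 73 nuclear genes of oxidative phosphorylation subunits, against 0.40 for the members, and by library size alone -0.19, -0.74 and -0.72. Cytosolic ribosomal proteins summed to 14092 ± 4049 CPM for WT (SD, n = 3), against 26287 ± 3166 for Het (SD, n = 3) and 26137 ± 1545 for KO (SD, n = 4). DESeq2 called 65 of 79 of them higher in KO against WT, 10 of 73 oxidative phosphorylation genes and 4 of 76 members, where it called 2.05% of all genes higher. The groups were not tested against each other.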

How the data were processed

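RNA sequencing libraries of pancreas tail from 10 mice (3 WT, 3 Het, 4 KO) were analysed from the table of raw counts per gene that the authors deposited. Per the submitters' processing notes, DRAGEN, STAR, Cufflinks and mm10 were used. The counting tool, annotation and strand setting are not given in the sources used here. Rows for reads without a feature (2.59% to 8.71%) and for ambiguous reads (0.101% to 0.584%) were kept out of library sizes and tests. Groups follow the labels. A label counts 1 WT mouse more, which is not analysed here, and another genotype element that all groups share is not reported here.

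Genes were kept by filterByExpr (minimum count 10), scaled by TMM and tested over all 13688 genes with edgeR 4.0.16 quasi-likelihood tests in R 4.3.3, with Benjamini-Hochberg adjustment and 1 fit over the 3 groups. DESeq2 1.42.0 and limma 3.58.1 voom with quality weights were alternatives, beside other library sizes, filters, covariates and left-out libraries. Single genes were also tested by exact two-sided permutation. The procedure was tested on simulated data. Python 3.11.15, pandas 2.3.3 and matplotlib 3.10.9 were used for tables and plots. Coding length and exon overlap come from GENCODE M21.

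The members and lists were chosen with earlier results of these data known. Named members are, per comparison, the higher and the lower members of smallest p (at most 8 each), the 5 highest and 5 lowest per coding kb, genes with a textbook role, the S18 paralogs and members against the median in both WT comparisons. The text describes those that show the pattern of each group, and up to 3 per direction of each pathway list. A list of 13 mitochondrially encoded genes was not analysed here.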

Additional observations from a re-analysis of the deposited data

Results flagged for a closer look

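Among 51 measures tested for a gap within the 4 KO libraries, 3 had 1 library far from the rest, where chance gives about 1 in 20, or 2.55. Mrpl35, a large subunit gene, was at 3.50 CPM in KO-2124, where the remaining KO libraries held 5.88 to 6.27. Mrpl21 had 6.97 CPM in KO-2126 and 4.47 to 4.89 in the others. The share of reads without a feature was 8.71% for KO-2124, against 2.59% to 3.48% in the remaining KO libraries, and it was 7.83% in WT-2404 and 7.001% in WT-1860.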

How the results depend on the processing

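No paired analysis was possible because mouse numbers are not shared between the groups. Precision is limited by 3 WT libraries that differ in enzyme share, and by low counts of some members.

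By library size alone the members' median log2 fold change was -0.72 in KO, -0.87 in Het and -0.80 in any floxed allele against WT. In the last, edgeR called 12 members lower, where it called 52% of all genes lower. With library sizes without the enzyme genes the medians were 0.19, 0.12 and 0.14. There 1 member was called higher in the last (0.329% of all genes). DESeq2 called 4, 3 and 12 members higher (2.05%, 0.89% and 3.67% of genes), and voom 20 in the last (6.1%). Leaving out 1 library gave 0 to 14 called members in KO, 0 to 15 in Het and 0 to 25 in any floxed allele against WT. The highest of these counts came without WT-2067, where 6.22%, 4.16% and 8.82% of all genes were called higher. Medians were 0.29 to 0.56, 0.36 to 0.56 and 0.34 to 0.56. The median of KO against Het, -0.05, was 0.08 by library size alone, 0.01 without enzyme genes in the library size and 0.02 with the length and GC trend removed. The cause was not tested.

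By library size alone, KO against WT was -0.34 for Mrpl20, -0.21 for Mrpl15, -0.21 for Mrps24, -0.69 for Mrpl42, -0.23 for Mrps34, -0.45 for Mrpl14 and -0.49 for Mrpl12. For any floxed allele the values were -0.21 for Mrpl15, -0.44 for Mrpl20, -0.65 for Mrpl42, -0.25 for Mrps24, -0.50 for Mrpl14, -0.30 for Mrps34 and -0.31 for Mrpl50. Members near 0 crossed it. In KO against WT, Mrpl35 was at 0.12 by voom, 0.14 with the enzyme covariate, 0.077 with the trend removed, 0.16 without WT-2404 and 0.13 without KO-2124 (-0.15 without WT-1860, the lowest). Mrps6 was at 0.14 with the covariate and 0.081 without WT-2404. Mrps22 was at 0.11 without WT-1860, 0.01 without WT-2067, 0.04 without KO-2079 and 0.10 without KO-2070 (lowest -0.28 without KO-2126). Mrps36 was at 0.11 without KO-2079 and 0.01 without KO-2124. In any floxed allele against WT, Mrps6 was at 0.012 with the covariate, Mrpl45 at 0.017 with the trend removed, 0.0060 without WT-2404 and 0.038 without Het-2066 (lowest -0.26 without Het-2042), and Mrps11 at 0.057 without Het-2042.

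Leaving out WT-2404 and KO-2124 together, chosen after seeing the data, gave medians of 0.36, 0.39 and 0.37 with 0 members called by edgeR and 22, 21 and 29 higher at an unadjusted p under 0.05 (7.92%, 5.59% and 8.2% of all genes). It put Mrpl35 at 0.34, Mrps6 at 0.11 and Mrps36 at 0.068 (KO against WT), and in any floxed allele Mrpl45 at 0.030 and Mrps11 at 0.0077.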
